A study of Mus musculus with 4 samples.

Results

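The genes described here are Adarb1, which encodes ADAR2, the second A-to-I RNA editing enzyme of mouse cells besides ADAR1, and 7 genes of proteins known to bind dsRNA or to regulate editing, Ilf2, Zfr, Dhx9, Stau1, Aimp2, Wwp2 and Elavl1. They were taken by name, as 8 of the 24421 genes of the deposited count tables and as the 1216 of 1205261 listed variant sites that carry their gene names. Beside Adarb1 on chromosome 10, they lie in mm10 at chr3:90476126-90488379 (Ilf2), chr15:12117831-12185683 (Zfr), chr1:153455758-153487660 (Dhx9), chr2:166947549-166996299 (Stau1), chr5:143902704-143909847 (Aimp2), chr8:107436365-107558595 (Wwp2) and chr8:4285382-4325413 (Elavl1). Lung endothelial cells (ECs) were selected from 2 inducible ADAR1 KO (i-KO) mice of independent litters, males of 2 weeks on a C57/BL6 background, and were cultured either with 4-OH-tamoxifen (TM) or without it (CON). All cells, those of the CON group included, carried the floxed ADAR1 gene (Adar) and an inducible Cre. The labels call the model EC-specific, and the promoter of the Cre is not given in the sources used here. No TM-treated cells without the deletion are among the libraries, so TM itself and loss of the enzyme cannot be told apart. Mice EC1 and EC2 each gave a pair of libraries, 1 CON and 1 TM (n = 2 libraries in each group, paired by mouse of origin).

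A-to-I editing converts adenosine to inosine inside double-stranded RNA, and inosine is read as guanosine, so that edited positions appear as A-to-G mismatches. ADAR1 and ADAR2 share this activity, and ADAR2 is known to edit its own pre-mRNA near an alternative 3′ splice acceptor. ZFR and the NF45 protein of Ilf2 form complexes of dsRNA-binding proteins that are known to restrict editing, DHX9 is a helicase that unwinds dsRNA formed by repeats, and STAU1 binds long duplexes in mRNA. The E3 ligase WWP2 targets ADAR2 for degradation, AIMP2 is a scaffold of the tRNA synthetase complex reported to lower ADAR protein, and ELAVL1 (HuR) binds AU-rich RNA.

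The count tables summed to between 131796753 and 207323870 per library, of which 1095488 to 1778732, or 0.823% to 0.858%, were assigned to genes. The counts of the 8 genes were low for the coverage of their exons. Dhx9 had 32 counts over the whole gene in EC1 CON, where a single exonic position listed in the site table was covered by a median of 449 reads. Over the 8 genes and 4 libraries, the count of the gene was below its median depth at a single exonic position in 29 of 32 cases, and the exceptions were 3 libraries for Aimp2, of whose exon bases 29.4% also lie in an exon of Eif2ak1 on the opposite strand. The cause of this gap was not tested. Read depth at listed exonic positions was used beside the counts. It is given in scaled reads, the depth divided by the total of the count table and multiplied by 100000000, and takes reads of either strand. It is a value per base, so it can be compared between genes, and it is known only at positions where a variant was called. Intervals are 95% Wilson intervals and hold counting error alone, because no molecular identifiers were used.

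**Figure D1:**
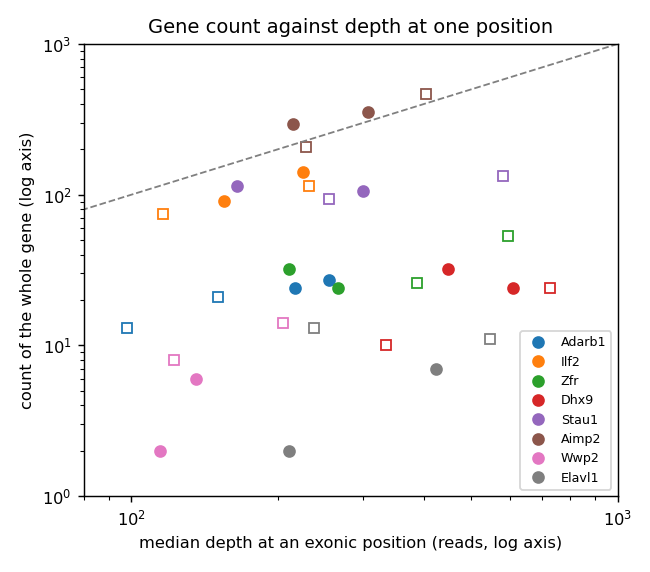
Count of the whole gene (y axis, log) against the median read depth at 1 listed exonic position (x axis, log) for the 8 genes in each library, with CON filled and TM open. Points under the dashed line have fewer counts over the gene than reads at 1 position, as 29 of 32 do.

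The deleted gene was read first. Adar (ENSMUSG00000027951.16), of whose exon bases 16.8% lie opposite an exon of Chrnb2, had 9 and 16 counts in the CON libraries of EC1 and EC2 and 47 and 71 in the TM libraries. Both TM libraries lay above both CON libraries. The difference came to 1.87 on the log2 scale (standard error 0.45, adjusted p = 0.00609 by the quasi-likelihood test of edgeR). DESeq2 did not call it (adjusted p = 0.0891), nor did edgeR without EC1 CON, which left 1 CON library (log2 1.48). The study floxed exons 12 to 15, the last of this gene. In exons 12 to 14 the median depth was 145 reads for CON of EC1, where TM listed no position, and 169 reads for CON against 65.5 for TM of EC2, from at most 3 positions in a library. In exon 15 it was 163.5 reads for CON of EC1, again with no position in TM, and 165 against 47 reads for EC2. In exons 1 to 11 it was 152.5 against 664 and 176 against 1001.5 reads, so transcript from the front of the gene was more abundant in TM.

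Adarb1 lies on the minus strand of chromosome 10, at chr10:77290726-77418270 in mm10 (ENSMUSG00000020262.15), and no exon of another gene overlaps its exons on the opposite strand. The deposited sites show editing of its own RNA at an exon that GENCODE vM21 annotates with alternative starts. In 3 transcripts this exon begins 47 bases further upstream than in the others that hold it, and these 47 bases, at chr10:77322584-77322630, are shown because 3 sites that passed the editing limits lie inside them. A second cluster of 6 passing sites lies upstream in the same intron, within a further annotated transcript, and is shown with its flanks (chr10:77324040-77324101). Both are given along the RNA, from the minus strand, with the edited adenosines in capitals:
Adarb1 extension: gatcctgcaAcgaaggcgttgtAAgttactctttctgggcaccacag
Adarb1 distant intronic cluster: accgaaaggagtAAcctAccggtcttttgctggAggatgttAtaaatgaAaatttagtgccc
RNAduplex, which predicts how 2 RNAs pair, joined these sequences through 30 base pairs with an energy of -33.4 kcal per mol, with 5 of the 9 edited adenosines in a pair. The prediction describes the sequences and was not tested in the cells.

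The study's limits were applied to each library: a site had to be covered by 5 reads or more, with 3 or more of them altered, and its editing rate (the fraction of altered reads) had to lie from 0.05 to 0.95. Adarb1 had 234 listed sites, of which 15 passed in at least 1 library, and the authors' annotation places all 15 in introns. Passing sites numbered 13 in CON and 7 in TM of EC1, and 15 in CON and 11 in TM of EC2. TM had fewer of them in both mice, and its depth was lower too. Over the sites listed in a library, CON and TM had a median depth of 81 and 24 reads for EC1 and of 77 and 39.5 reads for EC2.

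The site with the most reads that passed in all 4 libraries, at position 77322607, is base 24 of the extension. Its editing rate was 0.435 (57 of 131 reads) in CON and 0.25 (9 of 36) in TM of EC1, and 0.447 (71 of 159) in CON and 0.394 (28 of 71) in TM of EC2. The intervals of CON and TM overlapped in both mice. At the neighbouring base 23 (77322608) the rate was 0.152 against 0.0541 in EC1 and 0.201 against 0.0694 in EC2. The third site of the extension, base 10 (77322621), had a rate of 0.467 (interval 0.38 to 0.556) in EC1 CON and 0.156 (0.0686 to 0.318) in EC1 TM, but 0.424 and 0.382 in EC2 CON and EC2 TM. At this base the intervals of CON and TM were separate in EC1 and overlapped in EC2, and the difference between the mice was not tested.

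Just before the extension, position 77322631 is the last base of the intron, where an acceptor site ends. RNA spliced at this acceptor has lost the base, so the rate there covers only RNA not spliced at it, unlike the rates in the extension. At 77322631 the rate was 0.152 against 0.167 in EC1 and 0.118 against 0.111 in EC2, a difference (CON minus TM) of -0.0148 and 0.00654. Only large differences could have been seen at 30 to 85 reads, with an interval of 0.0734 to 0.336 in EC1 TM. The highest rate of any Adarb1 site was at position 77324060 in the distant cluster, 0.815 (66 of 81 reads) in CON and 0.588 (10 of 17) in TM of EC1, and 0.847 (61 of 72) in CON and 0.667 (26 of 39) in TM of EC2. It was lower in TM in both mice, with overlapping intervals. At position 77324084 the rate was 0.167 against 0.0833 in EC1 and 0.341 against 0.125 in EC2, and at 77324052 it was 0.163 against 0.111 and 0.11 against 0.0513. At 77324068 the difference (CON minus TM) was -0.0133 in EC1 and -0.00407 in EC2. At 77324089 it was -0.0843 in EC1 and -0.00895 in EC2, and at 77324088 it was -0.0102 and 0.0659, so that the sites of the cluster did not all move one way.

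**Figure D2:**
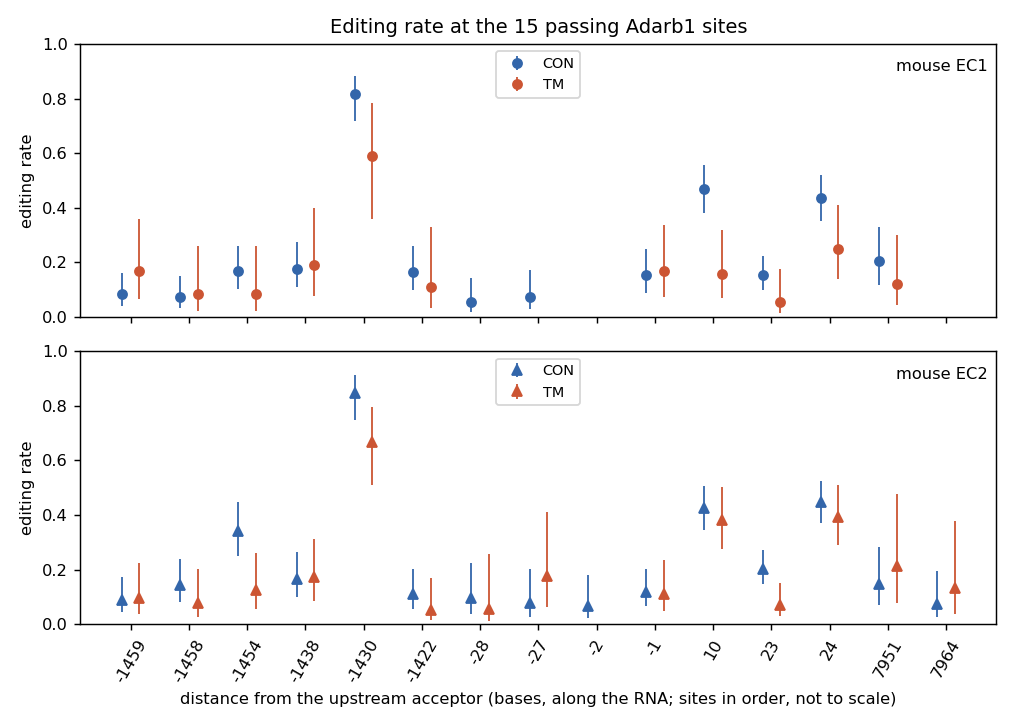
Editing rate (y axis, fraction of altered reads, with 95% Wilson intervals) at the 15 passing Adarb1 sites in mouse EC1 (top) and EC2 (bottom), in order along the RNA and labelled by their distance in bases from the acceptor of the extended exon, with no point where a library does not list the site. The site at -1430 is the highest in each library, and the site at -1 has nearly the same rate in CON and TM. RNA spliced at the acceptor of the extended exon no longer holds the site at -1.

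By the study's rule, a site was CON > TM in a mouse when it passed in CON and its rate was at least 0.05 above that in TM, and CON < TM in the reverse case. The deposited table gives a rate of 0 to a site without listed reads, and that value was used here. Adarb1 had 9 CON > TM and 1 CON < TM sites in EC1, and 7 and 2 in EC2. Of 13 Adarb1 sites that passed at least once in each mouse, 5 were CON > TM in both mice (77322607, 77322608, 77324052, 77324060 and 77324084) and none was CON < TM in both. Over all 8380 sites of the series that passed in both mice, 21.2% were CON > TM and 11.3% were CON < TM in both mice. The Adarb1 sites share a transcript and in part the same reads, so they are not independent. Fisher's exact test on the reads of each mouse, adjusted over all sites tested in that mouse, called no site of Adarb1 or of the other genes, against 0.898% of all tested sites as CON > TM in EC1 and 2.37% in EC2. Of the sites of the 8 genes, 1 of 15 in EC1 (77322621) and 4 of 19 in EC2 had an unadjusted p under 0.05. The share of all sites under this unadjusted limit was not taken, so these numbers cannot be set against the series. The mean rate over the Adarb1 sites was 0.232 against 0.152 in EC1 and 0.223 against 0.182 in EC2, a difference of 0.0608 ± 0.0273 (SD, n = 2 mice). With 2 mice an exact permutation test cannot go below p = 0.5, so no test was made on it.

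The level of Adarb1 RNA was lower in TM. The median depth over its exonic positions was 163 scaled reads in CON and 74.4 in TM of EC1, and 178 in CON and 72.6 in TM of EC2. The 2 TM libraries lay close together and well below both CON libraries. Centred on the median over genes, the change was -1.19 on the log2 scale in EC1 and -1.25 in EC2, a mean of -1.22 (standard error 0.14), or 0.43 of the CON level (adjusted p = 0.0249 by limma over the 6836 genes with at least 3 listed exonic positions in every library). Of those genes, 6.95% were lower in TM by the same test. The positions differ between libraries in that fit, so the depth was also read at positions listed in both libraries of a mouse. At least 1 such exonic position gave -1.07 (adjusted p = 0.0226 by limma, with 10.1% of 4211 genes lower), and a comparison within the same annotated exon pieces gave -1.23 (adjusted p = 0.00421 by limma, with 21.3% of 3750 genes lower). At intronic positions, of which CON and TM shared 14 in EC1 and 16 in EC2, Adarb1 fell by 1.59 on the log2 scale (-1.74 in EC1 and -1.43 in EC2, adjusted p = 5.36e-05 by limma, with 4.80% of 2145 genes lower). Of these shared positions, 11 in EC1 and 14 in EC2 were passing editing sites. They include the 3 sites of the extension and the 6 of the distant cluster, which lie in exons of some annotated transcripts. This value thus rests mostly on a few short stretches and does not describe unspliced RNA along the gene. A lower level in bulk RNA cannot tell fewer cells with the transcript from less RNA per cell. Without EC1 CON or EC2 TM the exonic change of Adarb1 did not pass, at log2 changes of -1.18 and -1.17. Depth fits with 1 library left out had 1 library in a group and no pairing by mouse. A lost call there cannot show that the result rests on that library.

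Depth along Adarb1 was lower upstream of the short start of the alternative exon than in the exon itself. The exon with the short start had a median depth of 227 reads in CON of EC1, where TM listed no position, and of 280 in CON and 152 in TM of EC2. The extension had 131, 154 and 71.5 reads in the same libraries, which is 57.7%, 55.0% and 47.0% of the exon, and 36.5 reads in EC1 TM. The first 1000 intronic bases upstream of it held 25.1%, 14.6% and 11.8% of the depth of the exon. The extension was thus covered at a level between the exon and the intron in the 3 libraries that allow the comparison. Reads of unspliced RNA cover it too, and spliced reads were not analysed here.

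In the gene counts Adarb1 had 24 in CON and 13 in TM of EC1, and 27 in CON and 21 in TM of EC2. The difference of -0.95 on the log2 scale (standard error 0.48, adjusted p = 0.267 by the quasi-likelihood test of edgeR) had the same direction as in the depth but was not past the threshold. Of the 8 genes, 6 passed the filter on low counts and none was called, where edgeR called 7.75% of the 7899 genes tested. Ilf2 and Dhx9 had an unadjusted p under 0.05 in edgeR, and DESeq2 called none and gave none an unadjusted p under 0.05. The share of all genes under this unadjusted limit was not taken. The 3 genes whose log2 CPM (counts scaled by library size) were most correlated with those of Adarb1 over the 4 libraries were Itga10, Fads3 and Adamts4 (Pearson r of 1.0, 0.9999 and 0.9996 among 7898 genes). Itga10, an integrin subunit, had 22, 6, 29 and 10 counts, and Adamts4, a protease of the extracellular matrix, had 267, 85, 343 and 132 counts, each time CON before TM of EC1 and then of EC2. These correlations describe 4 libraries and carry no test.

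**Figure D3:**
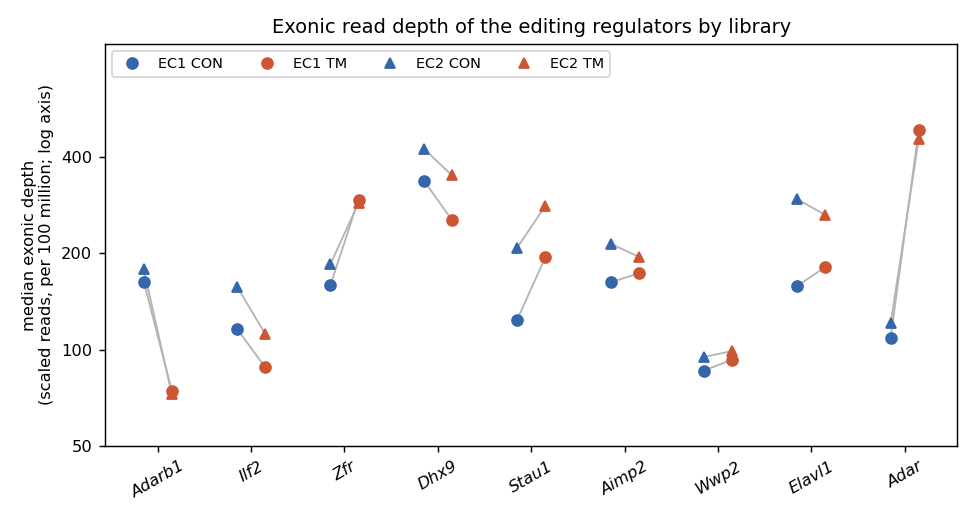
Median exonic read depth in scaled reads (per 100000000, y axis, log) of the 8 genes and of Adar in each library, with the CON and TM libraries of a mouse joined by a line. Adarb1 drops from 163 and 178 to 74.4 and 72.6, while Zfr and Adar rise in both mice.

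In CON the order of exonic depth was Dhx9, Elavl1, Aimp2, Zfr, Adarb1, Stau1, Ilf2 and Wwp2. Dhx9 (380 ± 61.5 scaled reads, SD, n = 2) stood above the others, and Wwp2 (90.4 ± 6.22) below them. The ranges of neighbours in between overlapped, from Elavl1 (226 ± 96.9) to Ilf2 (136 ± 29.0). In TM, Adarb1 (73.5 ± 1.27) was lower than every other gene of the group, Wwp2 included (95.9 ± 4.24).

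Among the partners of NF45 and ZFR, the zinc-finger RNA-binding gene Zfr rose in depth. It had 159 scaled reads in CON and 294 in TM of EC1, and 185 in CON and 287 in TM of EC2, with no overlap between the groups. Its log2 change was 0.84 in EC1 and 0.67 in EC2, a mean of 0.76 (standard error 0.15, adjusted p = 0.0492 by limma), and 7.01% of all genes were higher by this test. At positions shared within a mouse, of which there was 1 in EC1 and 3 in EC2, the change was 0.79 (adjusted p = 0.0362 by limma, with 11.1% of genes higher). Scaled by the totals of the count tables, Zfr did not pass (adjusted p = 0.0534 by limma). Without any 1 of the 4 libraries it did not pass either, at log2 changes of 0.56 to 0.80. Those fits had 1 library in a group and no pairing by mouse. Its gene counts were 32, 26, 24 and 53, with a log2 fold change of 0.10 (adjusted p = 0.935 by edgeR), and moved in opposite ways in the mice.

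Ilf2 had a depth of 116 against 88.0 scaled reads in EC1 and 157 against 112 in EC2 (CON against TM), lower in TM in each mouse with the groups apart by little, at 112 and 116. Its log2 change of -0.45 (adjusted p = 0.109 by limma) did not pass, and its counts of 91, 74, 142 and 115 gave -0.67 (adjusted p = 0.242 by edgeR).

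The dsRNA helicase gene Dhx9 had the most shared exonic positions of the group, 6 in EC1 and 7 in EC2, and alone among the 8 met the minimum of 3 shared positions in both mice. At these positions its depth changed by -0.29 on the log2 scale (adjusted p = 0.154 by limma), where 40.2% of the 1506 genes with as many shared positions were called in either direction. Over all listed exonic positions it had 337 and 424 scaled reads in CON and 254 and 350 in TM, so that the groups overlapped (log2 -0.35, adjusted p = 0.192 by limma). Of the RNA helicases listed (Dhx9, Dhx15, Dhx30, Dhx36 and Ddx5), all 5 were tested in depth and none passed. The most positive value was that of Dhx36, at 0.33.

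Stau1, which binds duplexes in mRNA, had a depth of 124 and 208 scaled reads in CON and 194 and 281 in TM, higher in TM within each mouse although the groups overlapped. Its log2 change was 0.59 in EC1 and 0.47 in EC2 (mean 0.53, adjusted p = 0.0842 by limma) and did not pass. Within the same exon pieces it was 0.61 and passed (adjusted p = 0.012 by limma), as did 20.8% of all genes in that direction. In the counts it went the other way at -0.31 (adjusted p = 0.648 by edgeR). Among the dsRNA-binding proteins Stau1, Stau2, Prkra, Tarbp2, Dicer1, Drosha and Dgcr8, 4 of 7 were tested in depth and none passed. Dicer1, the nuclease of microRNA maturation, had the most negative value at -0.61 (adjusted p = 0.0679 by limma), and Drosha had -0.50. At shared positions they had -0.19 and -0.18 (adjusted p of 0.336 and 0.243 by limma). With at least 10 own exonic positions, a setting chosen after seeing the data, both passed (log2 -0.60 and -0.48, adjusted p of 0.00391 and 0.0168 by limma). In that setting 665 of 3151 genes were lower.

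Neither gene known to act on ADAR2 protein passed the test. Wwp2 had a depth of 86.0 and 94.8 scaled reads in CON and 92.9 and 98.9 in TM (log2 0.08, standard error 0.14, adjusted p = 0.71 by limma). Aimp2 had 162 and 214 in CON and 173 and 195 in TM (log2 -0.02, standard error 0.15, adjusted p = 0.93 by limma). Missing the threshold does not show that they did not change. Wwp2 had at most 14 counts in a library and was not tested in the counts. The counts of Aimp2 were 294 against 208 in EC1 and 356 against 468 in EC2 (log2 fold change -0.36, adjusted p = 0.544 by edgeR). Of the list of ADAR2 localization and stability genes, Kpna1 and Kpna3 included, all 5 were tested in depth and none passed. The most positive was the importin gene Kpna3 at 0.57 (adjusted p = 0.0781 by limma). Within the same exon pieces Kpna3 passed (log2 0.50, adjusted p = 0.0163 by limma), as did 20.8% of all genes in that direction.

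Elavl1 had a depth of 158 and 295 scaled reads in CON and 181 and 263 in TM, with the mice further apart than the groups (log2 0.01, adjusted p = 0.972 by limma), and at most 13 counts. Among 12 RNA-binding editing regulators, 9 were tested in depth, 1 rose and none fell, where 7.01% of all genes tested rose and 6.95% fell. Fmr1, whose protein FMRP binds mRNA, rose from 77.4 to 197 scaled reads in EC1 and from 85.0 to 272 in EC2 (log2 1.51, standard error 0.18, adjusted p = 0.0245 by limma). Both TM libraries lay far above both CON libraries. With 1 library left out, and so no pairing by mouse, its log2 change was 1.31 to 1.57, and it did not pass without EC2 TM. Its counts of 14, 21, 8 and 40 did not pass (adjusted p = 0.233 by edgeR). Cpsf6, a subunit of the cleavage factor for mRNA 3′ ends, had 0.70 (adjusted p = 0.0801 by limma) but 0.03 within the same exon pieces (adjusted p = 0.838 by limma), the splicing factor gene Srsf9 had -0.39 and Dap3 had -0.60, and none of these passed.

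Among deaminases, only Adar and Adarb1 had enough exonic positions to be tested in depth, and they moved in opposite directions. Adar rose from 109 to 485 scaled reads in EC1 and from 121 to 453 in EC2, a log2 change of 2.02 (standard error 0.15, adjusted p = 0.0126 by limma). Adarb2, the brain-enriched relative of ADAR2, had at most 1 count per library, and the testis genes Adad1 and Adad2 had 0 counts in all 4 libraries, which allows up to 3 counts each. The tRNA deaminase genes Adat1 and Adat2 had log2 fold changes of 0.11 and 0.15 in the counts (adjusted p of 0.931 and 0.855 by edgeR).

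**Figure D4:**
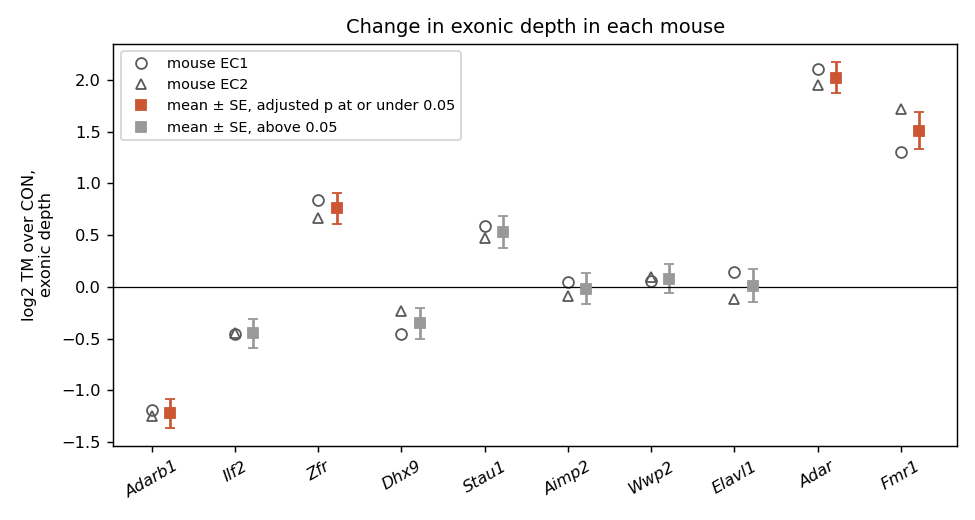
Log2 change of exonic depth, TM over CON (y axis), in mouse EC1 (circles) and EC2 (triangles), with the mean and its standard error from limma (squares). Adarb1 at -1.22, Zfr at 0.76, Adar at 2.02 and Fmr1 at 1.51 passed the adjusted threshold of 0.05, and both mice lie on the same side of 0 for each of them.

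The other transcripts held few passing sites. Of the 1216 listed sites of the 8 genes, 27 passed in at least 1 library, 15 of them in Adarb1 and 7 in Elavl1, and none of the 27 lay in an exon by the authors' annotation. By mouse, 20 sites of the 8 genes passed in CON or TM of EC1 and 24 in EC2. Of all 1205261 sites of the series, 15942 passed in EC1 and 16638 in EC2, so the 8 genes together were not poor in passing sites. Ilf2, Aimp2 and Wwp2 had no passing site. Elavl1 had 5 passing intronic sites, all in short interspersed repeats (SINEs) annotated as ID_B1 or B1_Mur1. At position 4293941 of chromosome 8, its site with the most reads among those that passed in all 4 libraries, the rate was 0.526 (10 of 19 reads) in CON and 0.222 (4 of 18) in TM of EC1, and 0.625 (10 of 16) in CON and 0.238 (5 of 21) in TM of EC2. Both TM libraries were below both CON libraries, with overlapping intervals. At 4293950 in the same repeat the rate was 0.20 against 0.0909 in EC1 and 0.167 against 0.111 in EC2. These were its sites with CON > TM in both mice. The other 2 sites that passed in both mice were CON > TM in EC1 but not in EC2, where the rate was 0.273 in CON against 0.353 in TM at 4292186 and 0.583 against 0.611 at 4292228. The mean difference over the Elavl1 sites was 0.172 in EC1 and 0.0498 in EC2 (0.111 ± 0.0865, SD, n = 2 mice). Stau1 and Dhx9 each had 1 passing site, in 1 library, and Zfr had 3 in EC2 TM.

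The endothelial label was checked against marker genes. All 10 endothelial markers had listed exonic positions in every library, with Cdh5 (VE-cadherin) at 4730 scaled reads in EC1 CON. Vwf was by far the lowest, at 8.27 in CON and 3.79 in TM of EC1, and 9.75 in CON and 4.1 in TM of EC2. It had 2 to 5 positions per library and at most 2 counts. Summed over the 10, exonic depth was 18500 in CON and 16400 in TM of EC1, and 23200 in CON and 18300 in TM of EC2. Over each library's own positions none of the 9 tested passed, with a median log2 change of -0.42. At shared positions 2 of 7 were lower in TM, Pecam1 (CD31, log2 -0.59, adjusted p = 0.0195 by limma) and Tie1 (log2 -0.64, adjusted p = 0.0175 by limma), where 20.1% of all genes were lower. With at least 1 shared position 3 of 8 were lower (Pecam1, Tie1 and Erg), and within the same exon pieces 5 of 9 were lower (those 3, Kdr and Icam2), against the 10.1% and 21.3% of all genes given above for Adarb1. None was higher in these fits, and the part of this fall of endothelial markers in the change of Adarb1 was not tested. Leukocyte markers summed to 20.9 to 36.8 scaled reads, with no listed exonic position for Ptprc, Itgam and Cd3e, and 0 counts for Cd3e and Lyz2. The macrophage gene Lyz2 nevertheless had a depth of 10.5 in EC1 CON, 28.6 in EC2 CON, where it was the deepest of these markers, and 8.44 in EC2 TM, from at most 3 positions. In the counts the leukocyte markers summed to 66.7 against 73.3 CPM in EC1 and 54.7 against 52.9 in EC2, most of it from Csf1r, the receptor of macrophage colony-stimulating factor, at 48.0 against 57.0 and 45.6 against 30.1 CPM. Epithelial markers summed to 30.7 to 40.3, with Krt18 the deepest and no position for Epcam, Cdh1, Sftpc and Scgb1a1. The summed depth of fibroblast and smooth muscle markers was also lower in TM, at 547 in EC1 CON against 204 in EC1 TM and 885 in EC2 CON against 299 in EC2 TM, with Dcn the deepest in both CON libraries at 255 and 311. The sums cover 7 of the 8 markers in EC1 CON, 5 in EC1 TM, all 8 in EC2 CON and 7 in EC2 TM. Col1a1, Dcn and Tagln were lower in TM in both mice, and Acta2 went from 194 to 24.6 and Col3a1 from 33.8 to 3.86 in EC2. Acta2, Col3a1 and Pdgfrb had no listed position in EC1 TM, nor Pdgfrb in EC2 TM. Pdgfra went from 2.09 to 11.1 in EC2, and Myh11 from 2.25 to 5.69 in EC1 and from 4.88 to 2.89 in EC2. Tagln was lower with at least 1 shared position (log2 -1.05, adjusted p = 0.0235 by limma) and did not pass over each library's own positions (log2 -0.79). Of its listed exonic positions, 89.7% lie in an exon of a gene on the opposite strand, so its depth cannot be assigned to Tagln alone. In the counts the same markers summed to 568 against 578 CPM in EC1 and 579 against 491 in EC2, of which Tagln alone made up 487 against 483 and 504 against 433 CPM. Their part in the change of Adarb1 was not tested.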

How the data were processed

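Reads were trimmed with Trimmomatic 0.38 and aligned to mm10 with STAR 2.6.1a by the authors. Raw counts per gene were deposited from HTSeq 0.11.2 under default settings, which assume that reads keep the strand of the gene. Whether the reads of these libraries do so was not tested. A gene count may therefore not measure the RNA of its own gene. The authors called variants with BCFtools mpileup and deposited, per site, the counts of reference and altered reads and the editing rate as a fraction. A site without listed reads in a library stands there at 0 reads and a rate of 0, and its depth was taken as unknown. The columns of this table name only the mouse. CON and TM were read from the study's supplementary site table, which holds the same sites with the columns named in full. Rows of the count tables that name no gene, 92.8% to 93.9% of the total for reads on no feature alone, were left out.

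The genes and lists were chosen with earlier results of these data known. Counts were tested with the quasi-likelihood test of edgeR 4.0.16 on condition alone, after filterByExpr and TMM scaling, and depth with limma 3.58.1 on 1 log2 ratio per mouse, both with Benjamini-Hochberg adjustment at 0.05 over all genes. The planned minimum of 3 exonic sites shared by CON and TM in both mice kept only Dhx9 of the group, so for the others the median over each library's own exonic sites, with at least 3 per library, is reported. DESeq2 1.42.0 was an alternative. Named were the 8 genes, Adar, list genes past the threshold or otherwise with the largest changes in depth, the 3 genes most correlated with Adarb1, sites changing one way in both mice, and the passing site with the most reads of a gene. Other sites of Adarb1 were named after their values were seen. The libraries of a mouse are paired by origin, and their deviations from the group means correlated with r = 0.163 over 7899 genes. The tests were first run on simulated data. Positions and sequences came from GENCODE vM21 on mm10. RNAduplex 2.7.2, R 4.3.3 and Python 3.11.15 were used. P-values refer to the spread between cultures of 2 mice. For depth, limma pools that spread in large part over all genes, so a depth p-value does not measure the spread of a single gene. Adarb1, at -1.19 and -1.25 in the 2 mice, was given a standard error of 0.14. Some genes of the lists are not reported here.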

Additional observations from a re-analysis of the deposited data

How the results depend on the processing

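Gene counts gave 612 calls over all genes, against 362 under DESeq2, 399 without TMM and 436 to 574 with 1 library left out. With the mouse as a replicate block the calls were 1184 in edgeR and 401 in DESeq2, and no call of the 8 genes was changed by the block. Depth at shared exonic sites gave 605 calls, against 352 without scaling, 110 with at least 10 shared sites, 121 with no replicate block at sites listed in all 4 libraries, 214 at intronic sites and 954 at each library's own exonic sites. Settings chosen after seeing the data gave 1578 within the same exon, 1300 with at least 10 own sites, 1053 off opposite-strand exons, 960 scaled by the totals, 1181 at own sites with no replicate block, and 303 to 385 with 1 library left out (382 without EC1 CON, 353 without EC2 TM). The numbers of genes tested differ between these settings, and the depth fits with 1 library left out had 1 library in a group and no pairing by mouse. The depth of Adarb1 fell in every setting that gave a value, with log2 changes of -1.59 to -1.07, and of -1.41 to -1.17 with 1 library or mouse left out, where it did not pass without EC1 CON (-1.18) or EC2 TM (-1.17). The 7 CON > TM sites of the 8 genes became 2 at a rate difference of 0.10 and 0 under Fisher's exact test, and 9 to 15 within 1 mouse. The mean Adarb1 rate difference of 0.0608 was 0.0415 to 0.0801 within 1 mouse and 0.00983 over sites in repeats, of which 1 counted in EC1 and 2 in EC2. Of 172 other comparisons of a single gene with an alternative, 149 kept direction and, where a test was made, side of the threshold. Some of the 149 are values with no test. Of the others, 8 no longer passed, 2 newly passed and 2 untested values for 1 mouse changed sign. The remaining 11 tested values changed sign, none of them past the threshold in either setting. These 11 log2 values were -0.07 and -0.11 for Zfr counts without EC2 CON and EC2 TM (0.10 with all libraries, -0.11 to 0.29 with 1 left out), 0.05, 0.09 and 0.17 for Aimp2 depth with at least 1 shared site, at intronic sites and off opposite-strand exons (-0.02), -0.08 and -0.05 for Wwp2 depth without EC2 CON and EC1 TM (0.08), and -0.06, -0.35, -0.23 and -0.14 for Elavl1 depth with no replicate block, without EC1 CON, without EC2 TM and within the same exon (0.01). The cause was not tested.

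Depth limits these results, since positions without a called variant have no known depth, Adarb1 counts lie between 13 and 27, and some of its sites have as few as 14 reads in TM.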

Other observations

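At position 12181521 of chromosome 15, inside an intron of Zfr, the altered base was read in 1 of 15 reads in EC1 CON and 1 of 11 in EC1 TM, but in 41 of 43 in EC2 CON and 54 of 65 in EC2 TM. The libraries of a mouse were alike and the mice differed, while the rate of 0.953 in EC2 CON lay above the upper limit of 0.95 and that of 0.831 in EC2 TM below it.

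Elavl1 held 2 further passing sites in the distal region before the gene, at 4327821 and 4327900 of chromosome 8, each in 1 TM library only, with 4 of 37 and 3 of 35 altered reads.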
